A study of Mus musculus with 6 samples.

Results

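The liver carboxylesterases are serine hydrolases that cut ester, thioester and amide bonds in drugs and in stored lipids. The 10 genes studied from this family, here called the members, were found by symbol in the deposited expression table and linked by gene identifier to the count files, 10 of 47729 genes counted. They are Ces1b, Ces1c, Ces1d, Ces1e, Ces1f and Ces1g of the Ces1 class, Ces2a and Ces2e of the Ces2 class, and Ces3a and Ces3b of the Ces3 class. The set was picked because Ces1d was lower after Atoh8 knockdown, so the Ces1d difference is described here and not tested.

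The RNA came from whole livers of C57BL/6 mice, although hepatocyte is the labelled cell type. The 3 knockdown samples carry a knockdown of Atoh8, a basic helix-loop-helix transcription factor, and the series design names them shAtoh8. The 3 control samples are titled WT and named shNC in the design. Both groups were fed DDC, which damages the biliary tree by disturbing haem synthesis, at 0.1% of the diet for 17 days. The labels give neither the delivery of the knockdown nor the cells it reached, nor the age of the mice. They do not tie replicates to separate animals, so a p-value covers the spread among libraries and this spread may be technical. The question was which genes differ in expression between livers labelled as Atoh8 knockdown and controls on the same diet.

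Most liver carboxylesterases carry a retrieval signal that holds them in the lumen of the endoplasmic reticulum, where they act on drugs and on triacylglycerol and cholesteryl esters. Rodents differ from humans in having a larger, tandemly duplicated Ces1 class, one member of which is secreted into the blood. Their transcription in liver is known to respond to nuclear receptors that sense xenobiotics, bile acids and fatty acids.

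Gene reads ranged from 36915731 to 37969644 in the knockdown libraries and from 31912058 to 36970491 in the controls. Levels are given as CPM (counts scaled to library size) on TMM-scaled library sizes when samples are compared, and as FPKM, which divides by transcript length, when genes are compared. Atoh8 itself stood at 10.2, 9.83 and 5.64 CPM in knockdown replicates 1 to 3, against 63.8, 16.8 and 16.4 CPM in control replicates 1 to 3 (log2 fold change -1.92, SE 0.58, edgeR adjusted p = 0.197). Without control replicate 1, the highest library, the log2 fold change was -0.95 (edgeR adjusted p = 0.0115). On the first principal component, 48.2% of the variance, the library of control replicate 1 was far from the other controls. Mitochondrially encoded genes took 3.48% to 4.61% of gene reads in the knockdown libraries, 2.43% in control replicate 1, and 6.94% and 5.35% in the other controls. The hepatocyte label fitted its markers, since Alb stood between 82508 and 92538 CPM in the knockdown libraries and between 77150 and 102962 CPM in the controls. The 10 hepatocyte markers summed to 106970 to 123040 CPM in knockdown and 111810 to 153550 CPM in control libraries. The sums of 7 cholangiocyte and 7 stellate cell and fibroblast markers were higher in every knockdown library, at 20.9 to 31.5 and 298 to 420 CPM, against 11.6 to 16.8 and 180 to 211 CPM in the controls. Singly, the groups lay apart for 2 of 4 cholangiocyte and 4 of 7 stellate cell and fibroblast markers tested, beside 13.0% of all genes. None was called. Sox9, a cholangiocyte marker, overlapped, at 13.3, 8.94 and 9.84 CPM in knockdown and 7.35, 12.8 and 10.5 CPM in control libraries. Of the other lists, 6 Kupffer cell markers summed to 346 to 400 CPM in knockdown and 213 to 353 CPM in control libraries, 6 lipid-associated macrophage markers to 326 to 387 and 204 to 310 CPM, and 6 endothelial markers to 110 to 159 and 131 to 145 CPM. The 7 lymphocyte and neutrophil markers summed to 4.43 to 5.49 CPM in knockdown and 1.23 to 6.14 CPM in control libraries, with Ly6g at 0 reads in each. Krt19, a defining cholangiocyte marker, had 3 reads in each knockdown library and 0 to 5 in the controls. The part of these cells in the results below was not tested. In whole tissue, fewer cells of a type and less RNA per cell cannot be told apart.

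Ces1d and its neighbour Ces1e were the members with the largest decreases in the knockdown livers, and Ces2e was the member with the largest increase. By the edgeR quasi-likelihood test with Benjamini-Hochberg adjustment over 13767 genes, 1 member was called lower with Ces1d left aside, Ces1e, where 0.123% of all genes tested were called lower. No member was called higher, where 0.741% of all genes were. DESeq2 called 1 member higher, Ces2e, and, with Ces1d left aside, 1 lower, Ces1e, where it called 3.73% of all genes higher and 1.4% lower. Since the set was picked from this same comparison, nothing is read from these shares. With Ces1d, which picked the set, counted in, the members' median log2 fold change was -0.50, beside -0.052 over all genes tested. That of the 10 hepatocyte markers was -0.46, with 9 of 10 negative and none called. The groups lay apart in the lower direction for 3 of these 10 markers. All 10 members passed the filter on low counts.

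**Figure D1:**
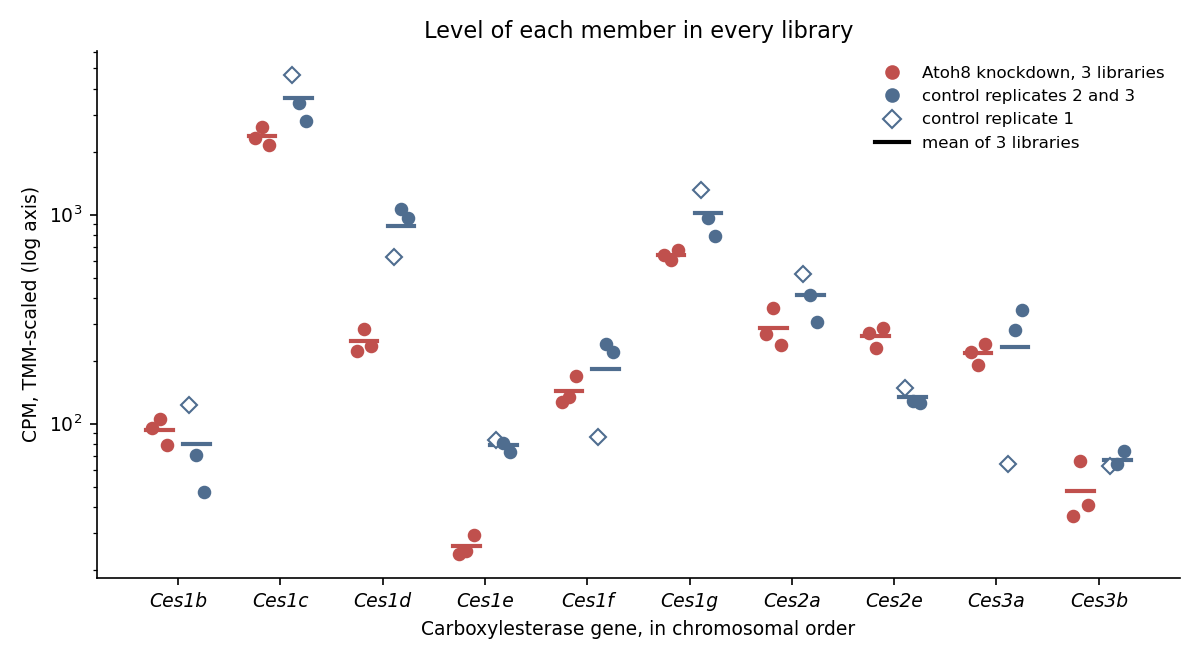
CPM of each of the 10 members in every library on a log axis, with Atoh8 knockdown libraries in red left of controls in blue, control replicate 1 as an open diamond and group means as horizontal lines. The groups lie apart for Ces1c, Ces1d, Ces1e and Ces1g (knockdown lower) and for Ces2e (knockdown higher), while control replicate 1 lies lowest of all for Ces1f and Ces3a.

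Ces1d encodes the triacylglycerol hydrolase of the hepatocyte endoplasmic reticulum, which mobilises stored triacylglycerol for the assembly of very low density lipoprotein. The gene (ENSMUSG00000056973) lies on GRCm38 chromosome 8, 93166068 to 93197838, on the minus strand. It stood at 223, 285 and 235 CPM in knockdown replicates 1 to 3, against 626, 1062 and 966 CPM in control replicates 1 to 3. Every knockdown library lay below every control. The means were 248 ± 33.0 CPM in knockdown and 885 ± 229 CPM in control livers (SD, n = 3 each), a log2 fold change of -1.84 (SE 0.26). Without control replicate 1, the lowest control, it was -2.02 (SE 0.16). These values chose the family and carry no test here.

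Ces1e encodes egasyn, which binds beta-glucuronidase and retains part of it in the endoplasmic reticulum of mouse liver. The gene (ENSMUSG00000061959, chromosome 8, 93201218 to 93229619, minus strand) is next to Ces1d, with 3379 bases between them. Ces1e fell to 23.9, 24.5 and 29.5 CPM in knockdown replicates 1 to 3, against 83.2, 80.5 and 73.2 CPM in control replicates 1 to 3. The controls, control replicate 1 among them, lay close together, and none overlapped a knockdown library. The log2 fold change was -1.60 (SE 0.18, edgeR adjusted p = 0.0234) with all 6 libraries and -1.55 (SE 0.14, adjusted p = 0.000165) without control replicate 1. With any other library left out the fold change stayed between -1.67 and -1.49, but the call was lost, with edgeR adjusted p between 0.0639 and 0.206. In those fits 0 to 20 genes of all tested were called higher and 0 or 1 lower, while 1130 to 1706 genes had an unadjusted p under 0.05. Gusb, which encodes beta-glucuronidase, the partner of egasyn, stood at 62.1, 62.6 and 66.6 CPM in knockdown and at 80.9, 61.9 and 70.4 CPM in control livers (edgeR adjusted p = 0.738).

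The promoter windows of the Ces1 members are shown because their genes lie in tandem and differ in their fold changes. RefSeq windows on GRCm38.p6, from 250 bases before to 50 after each start site, were matched by symbol for 7 of the 10 members, and not for Ces1d, Ces1f and Ces3a. Among all words of 8 or more letters, a single 8-letter word, TTATGTAA or its reverse complement TTACATAA, stood in all 4 Ces1 member windows matched (Ces1b, Ces1c, Ces1e and Ces1g). It also stood in the window of Ces1a, so in 5 of 6 Ces1 windows matched, and in none of the other windows of the family. Over all 32851 windows of this length, 0.938% held it on either strand. It is a word of the kind bound by C/EBP and PAR-domain bZIP factors, and a match is no more than a description of these letters. The stretches around it are given 5′ to 3′ on the gene's strand, with the shared word in capitals.
Ces1a: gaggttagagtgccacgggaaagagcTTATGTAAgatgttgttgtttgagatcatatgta
Ces1b: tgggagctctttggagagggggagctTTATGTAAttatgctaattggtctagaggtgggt
Ces1c: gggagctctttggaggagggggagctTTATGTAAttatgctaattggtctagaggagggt
Ces1e: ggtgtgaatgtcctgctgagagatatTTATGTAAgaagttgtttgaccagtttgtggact
Ces1g: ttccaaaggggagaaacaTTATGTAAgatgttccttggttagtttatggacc
They lie on the minus strand at chr8:93048357-93048416, chr8:93079991-93080050, chr8:93131344-93131403, chr8:93229667-93229726 and chr8:93337408-93337459. The word began 94 bases before the start site of Ces1c and 81 before that of Ces1e. In Ces1b it began 7 or 84 bases before the start, since RefSeq gives this gene 2 start sites, and in Ces1a and Ces1g it lay farther off, at 198 and 232 bases. Ces1b and Ces1c shared a stretch of 58 identical bases in these windows, while no other pair of Ces1 members shared more than 11. Of the genes whose windows held the word, Ces1c, Ces1e and Ces1g had negative and Ces1a and Ces1b positive fold changes.

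Ces1c and Ces1g were lower in every knockdown library than in any control without passing the test. Ces1c encodes the carboxylesterase of mouse plasma, which the liver secretes, and was the most abundant member. It stood at 2329, 2626 and 2161 CPM in knockdown replicates 1 to 3, against 4663, 3403 and 2800.0 CPM in control replicates 1 to 3 (log2 fold change -0.61, SE 0.25, edgeR adjusted p = 0.330). Ces1g, whose loss in mice leads to fatty liver and raised blood lipids, stood at 638, 606 and 675 CPM in knockdown and at 1304, 962 and 791 CPM in control livers (log2 fold change -0.67, SE 0.23, edgeR adjusted p = 0.250). For both, control replicate 1 was the highest library, and without it the log2 fold changes were -0.37 and -0.44 (edgeR adjusted p = 0.127 and 0.0558). With Ces1d left aside, the groups did not overlap in the lower direction for Ces1c, Ces1e and Ces1g, beside 10% of all genes tested. In the higher direction they did not overlap for 1 of 10 members, Ces2e, beside 13.0% of all genes. The set was picked from this same comparison, so nothing is read from these shares.

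Ces1b and Ces1f lay within the spread of the controls. Ces1b stood at 95.9, 106 and 78.9 CPM in knockdown replicates 1 to 3, against 122, 70.5 and 47.1 CPM in control replicates 1 to 3 (edgeR adjusted p = 0.808). Ces1f, a lipid hydrolase close in sequence to Ces1d, stood at 127, 134 and 169 CPM in knockdown and at 86.2, 239 and 219.6 CPM in control livers (edgeR adjusted p = 0.727). Control replicate 1 was the highest library for Ces1b and the lowest for Ces1f. Without it the call changed for both. Ces1b was then called higher (log2 fold change 0.68, SE 0.19, edgeR adjusted p = 0.0203). Ces1f was called lower (-0.66, SE 0.16, edgeR adjusted p = 0.0112). In that fit 2 members were called higher, Ces1b and Ces2e, where 16.5% of all genes were. With Ces1d left aside 3 were called lower, Ces1e, Ces1f and Ces3a, where 16.1% of all genes were.

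The Ces2 members had fold changes of opposite sign. In humans the Ces2 counterpart, CES2, cuts drug esters such as the prodrug irinotecan. Ces2e (ENSMUSG00000031886, chromosome 8, 104926260 to 104934672, plus strand) stood at 271, 229.6 and 286 CPM in knockdown replicates 1 to 3, against 149, 128 and 125 CPM in control replicates 1 to 3. No library of one group overlapped the other. The log2 fold change was 0.97 (SE 0.18), which just missed the threshold (edgeR adjusted p = 0.0676). Without control replicate 1 it was 1.07 (SE 0.15, edgeR adjusted p = 0.000936), and DESeq2 called it with all 6 libraries (adjusted p = 0.00058). Ces2a stood at 268, 359 and 237 CPM in knockdown and at 518, 411 and 305 CPM in control livers, with overlapping groups (log2 fold change -0.51, SE 0.26, edgeR adjusted p = 0.435). Within a library, the FPKM of Ces2e was 0.782, 0.470 and 1.01 times that of Ces2a in knockdown replicates 1 to 3, against 0.212, 0.236 and 0.304 times in control replicates 1 to 3, a ratio free of library scaling.

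The promoter windows of Ces2a and Ces2e are shown because these genes of one class, with fold changes of opposite sign, share the longest word found between them, 17 identical bases, given in capitals. No other window of the 32851 held it, on either strand.
Ces2a: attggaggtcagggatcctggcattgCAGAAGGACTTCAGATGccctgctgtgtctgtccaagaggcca
Ces2e: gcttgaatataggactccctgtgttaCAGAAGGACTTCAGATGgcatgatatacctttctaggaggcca
They lie on the plus strand at chr8:104733772-104733840 and chr8:104926051-104926119, and the shared word began 205 and 183 bases before the start sites. The nuclear receptor half-site AGGTCA, searched on both strands, stood in 1 of 7 member windows, that of Ces2a, and in 16.3% of all windows. CANNTG, the sequence class bound by basic helix-loop-helix factors, stood in 6 of 7 member windows and in 72.3% of all windows.

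The Ces3 members showed no difference beyond the spread of the libraries. Ces3a stood at 221, 190.5 and 239.7 CPM in knockdown replicates 1 to 3, against 64.5, 279.6 and 351 CPM in control replicates 1 to 3. Control replicate 1 was the lowest of all 6 libraries and the other controls were the highest. The log2 fold change was -0.09 with all libraries (SE 0.53, edgeR adjusted p = 0.957). It was -0.52 without control replicate 1 (SE 0.16, edgeR adjusted p = 0.0344), and positive with limma on log2(FPKM + 1), at 0.21. Ces3b stood at 36.0, 66.2 and 40.8 CPM in knockdown and at 62.9, 64.2 and 73.9 CPM in control livers (log2 fold change -0.49, SE 0.26, edgeR adjusted p = 0.453). Exons of Gm45724 overlap those of Ces3a on the opposite strand.

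**Figure D2:**
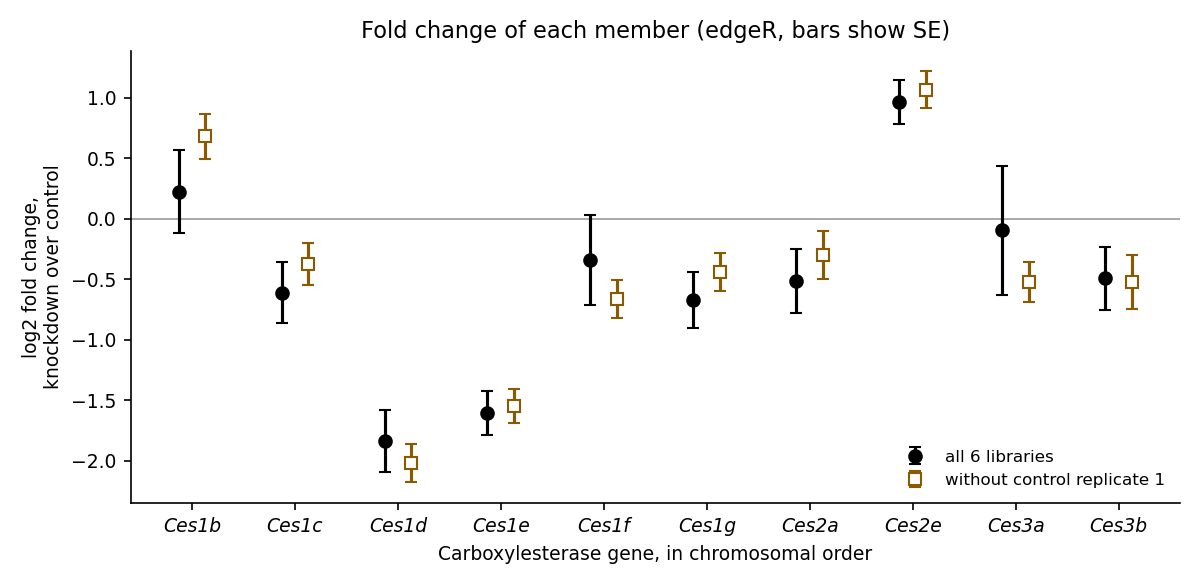
Log2 fold change of each member, knockdown over control, with its standard error, from all 6 libraries (filled circles) and without control replicate 1 (open squares). Ces3b, Ces1e and Ces2e differ least between the fits, and Ces1d goes from -1.84 to -2.02. Ces3a has the widest standard error with all libraries, 0.53.

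Control replicate 1 also stood apart for sex-biased liver genes, which is given here beside Ces3a and Ces1f because the same library was their lowest. The 7 male-biased genes summed to 4047 to 4837 CPM in knockdown libraries and to 1390 CPM in control replicate 1, against 2908 and 3567 CPM in the other controls. The 7 female-biased genes summed to 16.1 to 65.9 CPM in knockdown libraries and to 713 CPM in control replicate 1, against 212 and 90.4 CPM in the other controls. Neither sum overlapped between the groups, so the difference is not confined to control replicate 1. Xist stood at or below 0.0970 CPM in every library, and Ddx3y between 28.0 and 38.4 CPM in knockdown libraries, at 9.67 CPM in control replicate 1, and at 92.6 and 110 CPM in the other controls. The part of these differences in the carboxylesterase levels was not tested.

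Summed over the 10 members, FPKM came to 2553 ± 227 in knockdown livers and 4102 ± 579 in control livers (SD, n = 3 each). The ranges, 2349 to 2797 in knockdown and 3537 to 4694 in control libraries, did not overlap. Ces1d, whose lower level picked the set, is part of these sums, at a mean of 178 FPKM in knockdown and 629 FPKM in control livers. The sums and the read shares that follow therefore carry no test. The members took 0.465% to 0.480% of gene reads in knockdown and 0.555% to 0.654% in control libraries. Ces1c alone made up 57.5% ± 1.53 of the summed FPKM in knockdown and 55.0% ± 7.15 in control livers (SD, n = 3 each). The share of Ces1d was 6.17%, 7.90% and 6.70% in knockdown replicates 1 to 3, against 9.45%, 16.8% and 21.5% in control replicates 1 to 3. That of Ces2e was 5.72%, 4.32% and 6.22% in knockdown, against 1.70%, 1.67% and 1.80% in control livers. Ces1b took 1.74% ± 0.123 of the sum in knockdown and 0.851% ± 0.314 in control livers, without overlap. A share also moves with the sum, which was lower in knockdown livers. The CPM of Ces1b itself overlapped between the groups (edgeR adjusted p = 0.808).

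**Figure D3:**
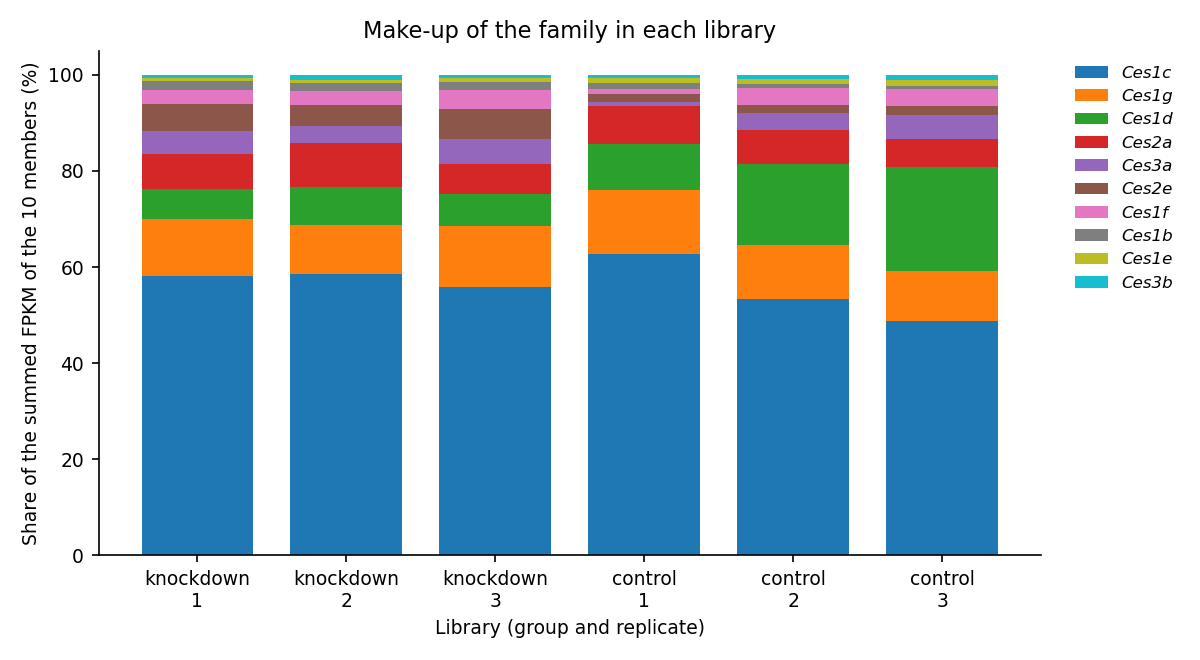
Share of each member in the summed FPKM of the 10 members, as stacked bars per library, knockdown libraries on the left. The Ces1d band is between 6.17% and 7.90% in knockdown and between 9.45% and 21.5% in control libraries, and the Ces2e band is wider in all 3 knockdown libraries.

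The order of levels per transcript length differed between the groups at every rank below the first, although some neighbours in it overlapped. By mean FPKM, Ces1c was first in both groups, at 1470 ± 165 in knockdown and 2283 ± 618 in control livers (SD, n = 3 each), and its range overlapped no other member. Ces1d ranked 4 in knockdown livers, at 178 ± 37.4 FPKM and overlapping Ces2a, and 2 in control livers, at 629 ± 165 FPKM and overlapping Ces1g. Ces2e ranked 5 in knockdown, at 137 ± 14.0 FPKM and overlapping Ces3a. In control livers it ranked 7, at 70.5 ± 8.20 FPKM, overlapping Ces1f above it and lying apart from Ces1e (46.5 ± 3.72 FPKM) below it. Ces1e was the lowest member in knockdown, at 15.6 ± 1.49 FPKM and apart from Ces3b (22.2 ± 7.28 FPKM). In control livers Ces1e, Ces1b (36.1 ± 18.3 FPKM) and Ces3b (34.5 ± 3.97 FPKM) were the last 3, and each overlapped its neighbour. Within a library, the FPKM of Ces1d was 0.106, 0.135 and 0.120 times that of Ces1c in knockdown replicates 1 to 3, against 0.150, 0.314 and 0.441 times in control replicates 1 to 3. The ratio of Ces1d to Ces1e overlapped between the groups, at 10.2, 15.4 and 9.13 in knockdown and 9.09, 14.1 and 18.0 in control livers.

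By their pattern over the 6 libraries, each gene taken relative to its own mean on the log2 CPM scale, the closest pair of members was Ces1c and Ces2a, with a root mean square difference of 0.11. Ces1c and Ces1g followed at 0.13. These 3 shared control replicate 1 as their highest library and control replicate 3 as the lowest control. Ces1d and Ces1e differed by 0.33, and Ces1f and Ces3a, both lowest in control replicate 1, by 0.40. The closest pair did not lie side by side, since Ces1c and Ces2a are in 2 separate clusters of chromosome 8, the Ces1 genes between 93020214 and 93379725 and the Ces2 and Ces3 genes between 104734003 and 105093929.

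The rest of the family added 10 genes, of which 5 passed the filter on low counts and none was called by edgeR with all 6 libraries. That fit called 0.741% of all genes tested higher and 0.123% lower, and 2002 genes had an unadjusted p under 0.05. DESeq2 called 1 of the 10 higher, Ces1a, where it called 3.73% of all genes higher. Ces1a, the gene at the outer end of the Ces1 cluster, had 88, 30 and 66 reads in knockdown replicates 1 to 3, against 10, 3 and 1 reads in control replicates 1 to 3. These came to 2.13, 0.784 and 1.54 CPM in knockdown and 0.331, 0.0860 and 0.0325 CPM in control livers, without overlap (log2 fold change 3.30, SE 0.78, edgeR adjusted p = 0.125). It passed in DESeq2 (adjusted p = 0.00121) and in edgeR without control replicate 1 (log2 fold change 4.56, SE 0.74, adjusted p = 0.00175). Exons of Gm45463 overlap those of Ces1a on the opposite strand, and the sources used here do not say whether counting used strand. Ces2c, a lipid hydrolase of mouse liver, stood at 54.7, 36.0 and 70.2 CPM in knockdown and at 40.0, 57.6 and 72.4 CPM in control livers (edgeR adjusted p = 0.937). Ces2g stood at 70.2, 62.2 and 69.9 CPM in knockdown and at 66.6, 76.1 and 81.3 CPM in control livers (edgeR adjusted p = 0.748). Ces2b and the pseudogene Ces2d-ps stayed at or below 2.24 CPM in every library (edgeR adjusted p = 0.751 and 0.664). Of the 5 genes not tested, Ces1h, Ces2h and Ces4a had at most 18 reads in a library, and Ces2f and Ces5a had 0 reads in all 6.

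**Figure D4:**
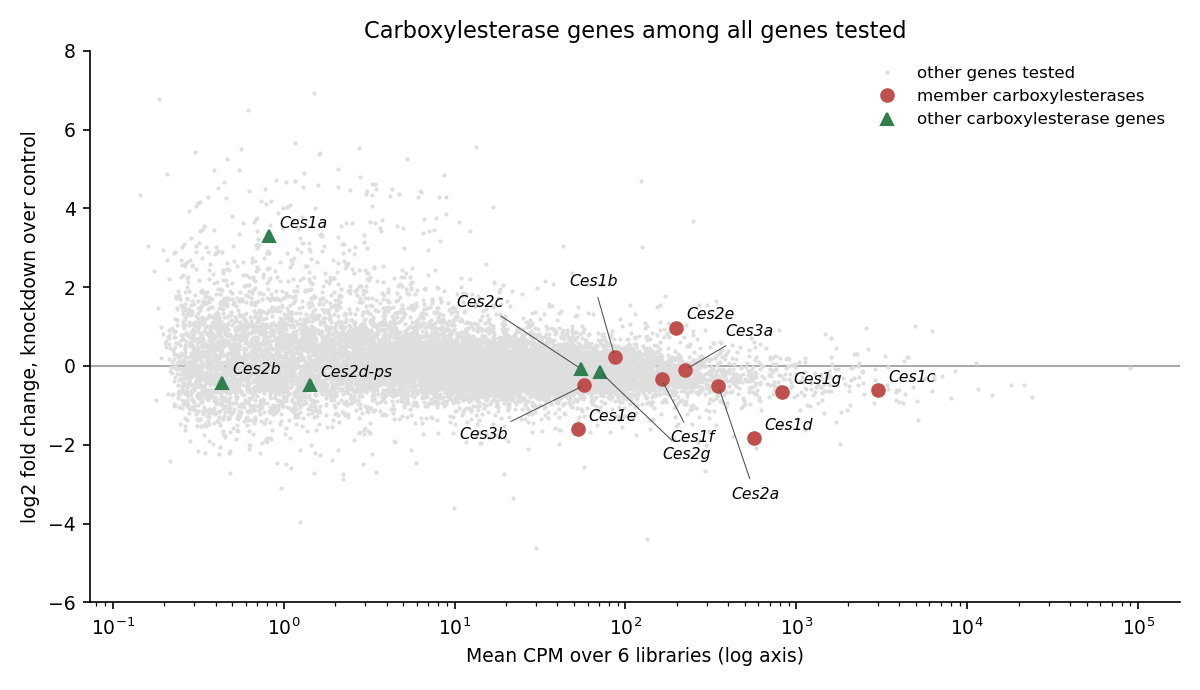
Log2 fold change, knockdown over control, against mean CPM on a log axis for all 13767 genes tested (grey), with the 10 members as red circles and the 5 other carboxylesterase genes tested as green triangles. Most members lie just below 0, with Ces1d and Ces1e near -1.84 and -1.60, Ces2e near 0.97, and the scarce Ces1a at 3.30.

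Near-identical stretches limit how surely a read belongs to one member. In GENCODE M21 transcripts, Ces3a shared 30.9% of its 50-base stretches, and Ces3b 26.1%, exactly with the other. Ces2a shared 22.2%, most of it with Gm7208, Ces1c shared 17.0% and Ces1b 11.6%. For Ces1d and Ces1e the shares were 1.28% and 3.21%, and for Ces2e 3.36%. With stretches of 100 bases Ces1d, Ces1e, Ces1f, Ces1g and Ces2e shared none, while Ces2a shared 10.7% and Ces3a 9.09%. The sources used here give no read length. The line for multiply aligned reads was 0 in every library. The levels of Ces2a, Ces3a and Ces3b are therefore less certain than those of Ces1d, Ces1e and Ces2e.

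Genes that act with the carboxylesterases were read from 5 lists. By edgeR with all 6 libraries, 0.741% of all genes tested were called higher and 0.123% lower. Of 12 genes listed under very low density lipoprotein assembly, 1 was called higher and none lower. That gene was Plin2, which encodes a coat protein of lipid droplets, at 401, 443 and 500.0 CPM in knockdown replicates 1 to 3, against 188, 139 and 132 CPM in control replicates 1 to 3 (log2 fold change 1.55, SE 0.21, edgeR adjusted p = 0.0328). In this list 8 fold changes were negative and 4 positive, with a median log2 fold change of -0.29, beside -0.052 over all genes. Over all genes tested 7527 fold changes were negative and 6240 positive. Of 14 liver transcription factors, 1 was called lower and none higher, beside the same shares of all genes. Among these 12 fold changes were negative and 2 positive, with a median of -0.39. Nr1i3, which encodes the xenobiotic receptor CAR, fell to 19.2, 24.7 and 16.7 CPM in knockdown livers, against 58.2, 73.6 and 55.0 CPM in control livers (log2 fold change -1.62, SE 0.23, edgeR adjusted p = 0.0348). Both calls held without control replicate 1 (edgeR adjusted p = 0.000199 for Plin2 and 0.000283 for Nr1i3) and were lost with any other single library left out.

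The other 3 lists held no call with all 6 libraries by edgeR. Over all genes, 7527 of 13767 tested had negative fold changes, as had 9 of the 10 hepatocyte markers (median -0.46). All 12 hydrolases of drug esters and epoxides had negative fold changes, with a median of -0.36. Pon1, the paraoxonase that liver secretes into blood, had the smallest p of these, at 331, 418 and 340 CPM in knockdown and 642, 802 and 685 CPM in control livers (log2 fold change -0.97, SE 0.20, edgeR adjusted p = 0.0827, DESeq2 adjusted p = 0.00123). Bphl, a hydrolase that activates valine ester prodrugs, stood at 74.8, 94.8 and 77.2 CPM in knockdown and 121, 112 and 124 CPM in control livers (edgeR adjusted p = 0.227). Of 17 lipid hydrolases 16 were tested, 8 with positive and 8 with negative fold changes and a median of -0.039. Lipc, hepatic lipase, and Pnpla6 had the smallest p (edgeR adjusted p = 0.330 and 0.432). Of the 4 genes of retrieval to the endoplasmic reticulum and the egasyn partner, Kdelr3 and Kdelr2, which encode receptors of the retrieval signal, had the smallest p (edgeR adjusted p = 0.418 and 0.659). Over all 5 lists without control replicate 1, 6 of the 59 genes listed were called higher and 20 lower, in the fit that called 16.5% of all genes higher and 16.1% lower.

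The genes nearest in pattern to Ces1d were searched among 7539 genes averaging 10 CPM or more, by root mean square difference on the log2 CPM scale over 6 libraries. Among the nearest were Ido2 (0.17), Sugct (0.21), Ppp1r3b (0.22) and Txndc15 (0.22). Ido2 stood at 27.0, 32.4 and 29.5 CPM in knockdown replicates 1 to 3, against 56.4, 110 and 118 CPM in control replicates 1 to 3, with control replicate 1 the lowest control, as for Ces1d. The genes nearest to the mean of the 10 members were Ech1 (0.042), Tgds (0.052), Tmcc1 (0.054), Akap8 (0.056) and Surf2 (0.056). Being nearest follows from the search, and these values carry no test.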

How the data were processed

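Total RNA from frozen livers was sequenced from Illumina libraries, 3 of each group, per the protocols in the labels. Raw gene counts, 1 file a sample, and FPKM values, 1 table over the samples, are as deposited by the authors. FastQC, Trim Galore, HISAT2 (listed as 2.10), HTSeq, Cufflinks 2.2.1 and the builds GRCm38 and mm10 come from lists per the submitters' processing notes, which state no roles. Lines that name no gene held 2.48% to 5.66% of reads outside genes and 4.69% to 6.87% ambiguous reads per library, and stayed out of library sizes and tests. Depth is given with the results. On library sizes before TMM scaling, a floor of 3 reads came to 0.0790 to 0.0940 CPM, and this floor covers counting error alone. All pairs of replicates differed by more than sampling noise.

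Counts passed filterByExpr, were TMM-scaled and went into edgeR 4.0.16 (R 4.3.3, glmQLFit and glmQLFTest) on group alone, with Benjamini-Hochberg adjustment over all genes tested and a threshold of 0.05. The SE of a log2 fold change is its size over the square root of the F statistic. The other settings tried were DESeq2 1.42.0, size factors by median ratio, a 1 CPM minimum in 3 libraries, no minimum, limma 3.58.1 on log2(FPKM + 1), with and without a filter of 0.5 FPKM in 3 libraries, and on log2(FPKM + 0.1) with it, a block on replicate number, and each library left out. The edgeR step was tested on simulated data. Gene positions and transcripts came from GENCODE M21, which held 47310 of the 47729 gene identifiers. Promoter windows came from RefSeq.

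The members, gene lists and tests were chosen with earlier results of these data known. The text names all members, every other gene with a symbol of Ces and a digit, Atoh8, of each list up to 4 genes that passed or the 2 with the smallest p, and the 5 nearest genes in pattern to Ces1d and to the members' mean, of which 1 is not reported here. Gusb and the marker genes given singly were named for their role, except Sox9, named for its overlap. The promoter words were named after the sequences were compared.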

Additional observations from a re-analysis of the deposited data

How the results depend on the processing

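Counts over all genes were 102 higher and 17 lower with all 6 libraries. They were 590 and 221 with DESeq2, 213 and 34 without a filter, and 40 and 7 with limma on log2(FPKM + 1) without a filter, while limma on log2(FPKM + 1) with its filter gave 27 lower. Leaving out 1 library gave 0 to 2348 higher and 0 to 2284 lower, the highest values without control replicate 1. Of the members, 0 were called higher and 2 lower, counts that take in Ces1d, whose call is no test. Ces2e was called higher with DESeq2 and without a filter (1 member each), and limma on log2(FPKM + 1) without a filter called 1 lower. Leaving out 1 library gave 0 to 2 members higher and 0 to 4 lower. Of the other carboxylesterase genes 0 were called, 1 was called higher with DESeq2, and 0 to 1 with 1 library left out. The pathway lists had 1 gene higher and 1 lower, 0 and 0 with limma on log2(FPKM + 1) without a filter, 2 lower with DESeq2, and 0 to 6 higher and 0 to 20 lower with 1 library left out.

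Same-numbered samples share no stated animal or batch. Their deviations from the group means correlated at 0.25, -0.08 and 0.29 over genes, so the numbers were not taken to pair them. With the replicate number as a block, 33 genes were called higher and 2 lower, 0 members were called in either direction, and the pathway lists had 0 calls.

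Fold changes of the 10 members and 5 other carboxylesterase genes kept their direction in every alternative that gave a value, except for 3 genes, none called with all 6 libraries. Ces1b ranged from -0.047 (without control replicate 3) to 0.68 with 1 library left out, and Ces2c from -0.29 to 0.19, positive without knockdown replicate 2 and, at 0.13, without control replicate 3. Ces3a was at 0.19 with the replicate block, 0.21, 0.22 and 0.21 in the limma fits on FPKM, and from -0.52 to 0.33 with 1 library left out, positive at 0.034, 0.061 and 0.33 without knockdown replicate 2, control replicate 2 and control replicate 3. The cause was not tested. Ces1d ranged from -2.02 to -1.69, Ces1e from -1.67 to -1.49 and Ces2e from 0.92 to 1.12 over 14 alternatives.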
